A study of Mus musculus with 8 samples.

Results

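The experiment described here set cells treated with all-trans retinoic acid (RA), the active form of vitamin A, against untreated cells of the same experiment, across all genes. Its members are the libraries whose count columns are named RA 1, RA 2, Control 1 and Control 2, which are 4 of the 8 libraries of the series. The RA libraries came from wild-type C57BL6 bone marrow (BM) cells in medium with 10% fetal bovine serum, 20 ng/ml GM-CSF and 10 ng/ml human TGFβ1. By the labels the cultures lasted 3 to 5 days, and RA was added at 1 nM. The Control libraries were wild-type C57BL6 cells in the same cytokines without added RA. The other 4 libraries, 2 of untreated wild-type cells (WT 1 and WT 2) and 2 of *Rara* knockout cells, entered only the alternatives named below. The column names number these 4 libraries in another series than the RA and Control libraries. Only the column name of RA 2 carries a run label. The labels name both regular and charcoal-treated serum and tie neither to a library. For this experiment the study itself names charcoal-treated serum, the shortest of these culture times and a higher dose of RA than the labels. The columns do not say which Control library is WT 3 and which is WT 4. The methods also state that wild-type controls of the study could be mice with a floxed *Rara* allele or with a CD11c-Cre transgene, and do not say which were used here. In every group CD11c+ cells were taken from the culture on magnetic beads at a stated purity over 90%. They are a culture model of Langerhans cells (LCs) and may still hold other cells.

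RA enters the nucleus and binds the retinoic acid receptors RARα, RARβ and RARγ. They sit on DNA as pairs with a retinoid X receptor (RXR) and switch from repressing to activating transcription when the ligand is bound. Cells take in retinol, oxidize it to retinal and then to RA, and break RA down with enzymes of the CYP26 family, several of which are themselves induced by RA in other cells. LCs are the dendritic cells (DCs) of the epidermis, depend on TGFβ1, and carry langerin, EpCAM and E-cadherin. In DCs of the gut, RA is known for the homing receptors and enzymes that it induces.

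Levels are given as CPM, the counts of a gene per 1e6 counts of its library after TMM scaling. Depth was alike in all libraries, at 47754589 and 50623768 counted read pairs in RA 1 and RA 2, against 47214273 and 49527916 in Control 1 and Control 2. *Itgax*, which encodes CD11c, the marker used for the sort, was at 539.8 and 605 CPM in RA 1 and RA 2, against 1153 and 1187 CPM in Control 1 and Control 2. It was present in all 4 libraries and was called lower with RA (-1.03). Defining markers of several other cells had no count in any of the 4 libraries. They were *Cd3e* of T cells, *Krt5* and *Krt14* of keratinocytes, *Ncr1* of NK cells and *Pax5* of B cells. Other genes of such cells were present at low levels: *Cd3d* of T cells had 2 counts with RA and 37 in Control, and the lists of other cell types are given further on. *Xcr1* of cDC1 had 4 counts with RA and 10 in Control. The Y-linked gene *Ddx3y* was at 79.0 and 77.4 CPM with RA, against 83.5 and 92.4 CPM in Control, and none of 4 sex-linked genes was called. RA 1 stood apart in *Rn45s*, the ribosomal RNA precursor, which took 1.09% of its pairs against 0.0948% of those of RA 2 and 0.136% and 0.086% of those of Control 1 and Control 2. The sources call the samples independent but name no separate mouse or culture for any of them, so p-values here measure the spread between these libraries, which may be technical.

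RA changed the expression of a large part of the genes tested, and the largest changes were losses. Of 24421 genes in the table, the 12142 that reached 0.5 CPM in 2 or more of the 4 libraries were tested by edgeR's quasi-likelihood method. A gene is called here where its Benjamini-Hochberg adjusted p was below 0.05. A bare number in brackets after the levels of a gene is its log2 fold change, RA over Control (n = 2 each), and the gene was called unless stated otherwise. There were 2265 genes called higher with RA (18.7% of those tested) and 2571 called lower (21.2%), together 39.8%. Counts called in each gene list below are to be read against these shares. Among the genes called, the median log2 fold change was 0.592 for those higher and -0.998 for those lower, against 0.012 for all genes tested. The excess of losses grew with the size of the change. At least 2-fold changes were found for 559 higher genes (4.6% of those tested) and 1283 lower genes (10.6%). At least 4-fold changes were found for 162 higher (1.33%) and 649 lower genes (5.35%). At 8-fold there were 62 higher (0.511%) and 331 lower genes (2.73%), and at 16-fold 20 higher (0.165%) and 146 lower genes (1.2%). Both RA libraries lay above both Control libraries for 38.6% of the genes tested and below both for 37.1%. The genes called lower at least 4-fold took 0.594 and 0.834% of all counts with RA, against 7.15 and 7.09% in Control. Libraries of a group were close to each other, with a standard deviation of the log2 difference across genes of 0.377 between the RA libraries and 0.291 between the Control libraries, against 0.959 to 1.117 between groups. Leaving out a Control library moved the counts of calls more than leaving out an RA library: without Control 1 there were 1240 higher and 1817 lower genes, and without Control 2 there were 915 and 1509. Without RA 1 there were 2238 and 2592, and without RA 2 there were 2460 and 2833. With all 4 untreated wild-type libraries as controls the counts were 1165 and 1845. In a bulk sample, fewer cells of a type and less RNA of a gene per cell cannot be told apart, and this holds for every difference below.

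**Figure D1:**
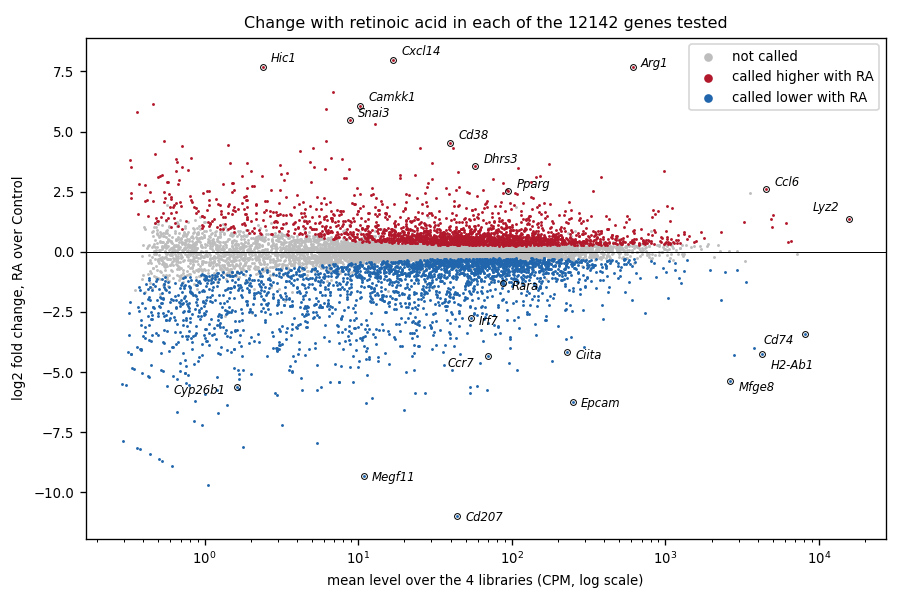
Log2 fold change, RA over Control, of each of the 12142 genes tested against its mean level over the 4 libraries in CPM (log scale). Red points are the 2265 genes called higher with RA, blue points the 2571 called lower, grey points were not called, and circles mark named genes, from *Cxcl14* at 7.96 to *Cd207* at -10.98.

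The plot of all genes shows the losses reaching further from 0 than the gains at low and middle levels, while the gains of the most abundant genes stay within a few units. Calls also went with gene length and level. In the fifth of genes with the shortest exons (56 to 1601 bases), 27.6% were called higher and 14.2% lower, and in the fifth with the longest exons (4784 to 83437 bases) 11.7% and 30.4%. In the fifth with the lowest mean level 268 of 2429 genes were called higher and 684 lower, and in the fifth with the highest 664 of 2429 and 487. Once the trend of each library on exon length was removed, 2176 genes were called higher and 2498 lower, of which 1912 and 2336 were the same genes as before.

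Of the genes of RA receptors and their RXR partners, 3 of the 4 tested fell with RA treatment. *Rara*, which encodes RARα and lies on chromosome 11 from 98937696 to 98974942 in mm10, was at 50.6 and 51.7 CPM in RA 1 and RA 2, against 121 and 130.0 CPM in Control 1 and Control 2 (log2 fold change -1.29 ± 0.09 SE, edgeR adjusted p = 0.000312). *Rarg*, which encodes RARγ, was at 8.43 and 5.85 CPM with RA, against 17.6 and 17.7 CPM in Control (log2 fold change -1.30, adjusted p = 0.00414 from edgeR). *Rxra*, the RXR partner, was at 156 and 127 CPM with RA, against 412 and 419.6 CPM in Control (-1.55). In all 3 genes both RA libraries lay below both Control libraries, as in 37.1% of all genes tested. *Rxrb* was the only receptor of the 4 tested that was called higher, at 63.6 and 59.3 CPM with RA, against 50.4 and 48.0 CPM in Control (0.32, adjusted p = 0.0346 from edgeR). That call was lost without RA 1 (0.27), without Control 1 (0.36), without Control 2 (0.29) and with 4 untreated controls (0.15). *Rarb*, a receptor gene induced by RA in many cells, had 4 and 12 counts with RA, against 2 and 2 counts in Control, too few to be tested. *Rxrg* had no count in any library.

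Of 15 tested genes of retinoid uptake, synthesis, binding and breakdown, 3 were called higher (20.0%) and 4 lower (26.7%). These shares were near the 18.7% and 21.2% over all genes tested. The median log2 fold change of the list was 0.26 (0.32 without Control 1 and 0.19 without Control 2). *Dhrs3*, a reductase that turns retinal back into retinol and is induced by RA in other cells, was at 129 and 84.2 CPM in RA 1 and RA 2, against 7.60 and 10.4 CPM in Control 1 and Control 2 (log2 fold change 3.57 ± 0.25 SE, edgeR adjusted p = 0.000335), an 11.8-fold rise that was not called against 4 untreated controls (1.98). *Cyp26b1*, one of the enzymes that break RA down, was at 0.0429 and 0.0794 CPM in RA 1 and RA 2, against 3.27 and 3.11 CPM in Control 1 and Control 2 (log2 fold change -5.63 ± 0.37 SE, edgeR adjusted p = 0.000277), a loss from a low level: 6 counts with RA against 313 in Control. The gene lies on chromosome 6 from 84571414 to 84593908. *Dhrs9*, a dehydrogenase that makes retinal from retinol, was at 1.69 and 3.10 CPM with RA, against 42.3 and 30.4 CPM in Control (-3.92). *Bco2*, a carotenoid-cleaving oxygenase, was at 1.57 and 1.37 CPM with RA, against 5.94 and 6.07 CPM in Control (-2.03). The 2 enzyme genes *Dhrs3* and *Cyp26b1* went in opposite directions. For *Dhrs3* both RA libraries lay above both Control libraries, as in 38.6% of all genes tested. For *Cyp26b1* they lay below both, as in 37.1%. *Fabp4*, which encodes a fatty acid-binding protein, was at 2.45 and 1.01 CPM with RA, against 4.12 and 4.31 CPM in Control (-1.29), and its call was lost without Control 1 (-1.32) or Control 2 (-1.26), while without RA 1 its value was -2.05. *Aldh1a2*, the retinal dehydrogenase of gut DCs, was low in all libraries at 1.33 and 2.34 CPM with RA, against 0.854 and 1.10 CPM in Control (0.91, adjusted p = 0.0886 from edgeR, not called), and it was called without RA 1 at 1.26. *Fabp5*, which can carry RA to another nuclear receptor, was at 665 and 380.0 CPM with RA, against 414 and 366 CPM in Control (0.42, adjusted p = 0.224 from edgeR, not called). Its RA libraries disagreed, with RA 1 above both Control libraries. The value was -0.03 without RA 1, and without RA 2 the gene was called at 0.75. The other 2 genes called higher, *Rdh11* (0.33) and *Adh5* (0.26), lost their calls without 3 and 4 of the single libraries, at 0.30 and 0.28 without RA 1.

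**Figure D2:**
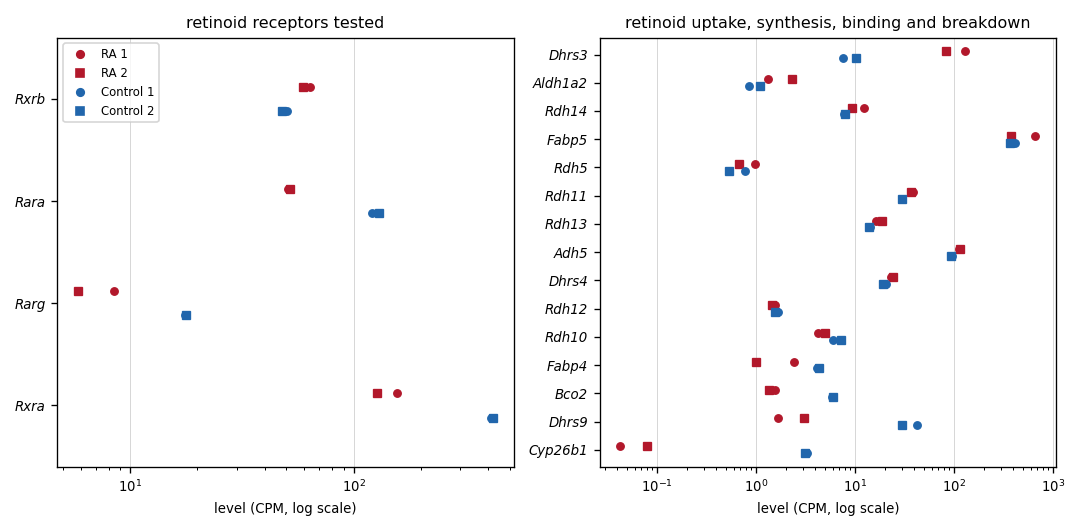
Level of each tested retinoid receptor (left) and each tested gene of retinoid uptake, synthesis, binding and breakdown (right) in CPM on a log scale, with the RA libraries in red and the Control libraries in blue (circles library 1, squares library 2). *Rara*, *Rarg* and *Rxra* are lower in both RA libraries, and the log2 fold changes reach 3.57 for *Dhrs3* and -5.63 for *Cyp26b1*.

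Of 22 tested genes known as RA targets in other cells, 9 were called higher (40.9%) and 5 lower (22.7%), with a median log2 fold change of -0.18. Over all genes tested the shares were 18.7% and 21.2%. Without RA 2 the counts were 10 and 10, and the number lower was 3 without Control 2. The genes described next are among those that rose. *Cd38*, an enzyme that consumes NAD+ and a classical RA-induced surface protein of human myeloid leukemia cells, was at 80.1 and 72.2 CPM in RA 1 and RA 2, against 2.71 and 3.81 CPM in Control 1 and Control 2 (log2 fold change 4.54 ± 0.18 SE, edgeR adjusted p = 8.63e-05). *Arg1*, the arginase that turns arginine into ornithine, was at 1416 and 1024 CPM in RA 1 and RA 2, against 4.17 and 7.80 CPM in Control 1 and Control 2 (log2 fold change 7.67 ± 0.38 SE, edgeR adjusted p = 0.000108), a 203-fold rise (6.63 against 4 untreated controls). *Arg1* lies on chromosome 10 from 24915207 to 24927470. Neither gene had any overlap between RA and Control libraries, and 38.6% of all genes tested had both RA libraries above both Control libraries. In the list of retinoid-associated genes of gut DCs, 2 of 9 tested genes were called higher and 4 lower (2 lower without Control 2). *Ltbp3*, which binds latent TGFβ, was at 51.3 and 44.4 CPM with RA, against 2.27 and 2.55 CPM in Control (4.31, and 3.11 against 4 untreated controls). *Itgae*, which encodes CD103, was at 21.6 and 52.4 CPM with RA, against 167 and 274 CPM in Control (-2.57, adjusted p = 0.00643 from edgeR) and reached -3.36 without RA 2. Of the HOX and other homeobox genes, many of which respond to RA in embryos, 9 of 25 passed the filter. Of these 9, 2 were called higher (22.2%, near the 18.7% over all genes), 1 lower (11.1%, beside 21.2%), and 6 were not called. The 2 called higher were *Hoxb3* (1.85) and *Hoxb4* (1.05).

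The promoters of the genes that rose most were searched for the known arrangements of retinoid half-sites. In RefSeq promoters of GRCm38.p6, from 250 bases before to 50 bases after the start of a gene, direct repeats of the half-site spaced by 2 or 5 bases (DR2 and DR5) were in 0.359% of 27018 promoters and in none of the 118 promoters matched among the 162 genes called higher at least 4-fold. Among all tested genes they were in 8 of 9299 matched promoters (0.086%). At either share 118 promoters would hold fewer than 1 on average, so the count of 0 says little. The search covers both strands of this window only.

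The genes named next had the largest rises among genes with 5 CPM or more with RA and no overlap between the groups. *Cxcl14*, a chemokine that epithelial tissues make, had the highest fold of them, at 33.3 and 33.99 CPM in RA 1 and RA 2, against 0.125 and 0.140 CPM in Control 1 and Control 2 (log2 fold change 7.96 ± 0.19 SE, edgeR adjusted p = 6.21e-05), a 249-fold rise (5.80 against 4 untreated controls). It lies on chromosome 13 from 56288643 to 56296551. *Camkk1*, a kinase activated by calcium and calmodulin, was at 14.3 and 26.4 CPM with RA, against 0.250 and 0.359 CPM in Control (6.05). *Camk2n1*, which encodes an inhibitor of another calmodulin kinase, was at 12.2 and 12.1 CPM with RA, against 0.146 and 0.239 CPM in Control (5.95, and 4.37 against 4 untreated controls). Both genes were under 0.5 CPM in both Control libraries and over 10 CPM in both RA libraries. *Snai3*, a transcriptional repressor of the Snail family, was at 16.1 and 18.5 CPM with RA, against 0.271 and 0.499 CPM in Control (5.48). *Acaa1b*, a thiolase of peroxisomal β-oxidation, was at 32.9 and 17.7 CPM with RA, against 0.604 and 0.658 CPM in Control (5.32, and 4.22 against 4 untreated controls). *Fam78b* was at 16.3 and 10.8 CPM with RA, against 0.0625 and 0.200 CPM in Control (6.66, with 6.07 without Control 1 and 7.71 without Control 2). *Rnase2a* and *Ear2*, which encode secreted ribonucleases of eosinophils and macrophages, rose by 4.60 and 4.31 on the log2 scale and were not called against 4 untreated controls (2.39 and 2.46). *Adgre4*, an adhesion receptor of macrophages, rose by 4.31. *Hic1*, a transcriptional repressor that RA induces in gut lymphocytes, is given apart, since its mean level with RA was under 5 CPM. It had 106 and 364 counts with RA, against 2 and 0 counts in Control, a ratio of 238 (95% Poisson limits 65.4 and 1968, for counting error alone). Its fitted value was 7.70, with 8.30 without RA 1, 6.62 without RA 2, 10.87 without Control 1, 6.75 without Control 2 and 4.29 against 4 untreated controls.

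Among the genes that fell most, those named next were under 3 CPM in both RA libraries. *Cd207*, which encodes langerin, the lectin of Birbeck granules in LCs, was at 0.0429 and 0.0397 CPM in RA 1 and RA 2, against 74.5 and 102 CPM in Control 1 and Control 2 (log2 fold change -10.98 ± 0.32 SE, edgeR adjusted p = 6.21e-05), and it lies on chromosome 6 from 83671207 to 83677857. Both RA libraries held 2 counts of it. The next genes had almost no counts with RA. *Megf11*, a receptor related to those that clear apoptotic cells, had 3 and 0 counts with RA, against 984 and 1143 counts in Control, a 701-fold lower rate (95% Poisson limits 239.5 and 3402, for counting error alone). *Wnk2*, a kinase, had 4 counts with RA against 1049 in Control, a 259-fold lower rate (limits 100.97 and 953). *Gabbr2*, a subunit of the GABA-B receptor, had 4 counts against 631 (156-fold, limits 60.6 and 574). *Syt9*, a synaptotagmin, was at 0.236 and 0.575 CPM with RA, against 37.3 and 41.2 CPM in Control (-6.57, and -7.38 without RA 2). *Sept3*, a septin, was at 0.0858 and 0.476 CPM with RA, against 17.4 and 27.3 CPM in Control (-6.27, with -5.54 without RA 1 and -8.0 without RA 2). Neither gene reached 1 CPM in an RA library. *Hr*, a corepressor of nuclear receptors, was at 1.93 and 1.67 CPM with RA, against 124 and 85.4 CPM in Control (-5.86). *Dmpk*, a kinase known from myotonic dystrophy, was at 0.665 and 1.17 CPM with RA, against 39.2 and 67.8 CPM in Control (-5.85). The serotonin transporter gene *Slc6a4* was at 1.76 and 2.46 CPM with RA, against 105 and 103 CPM in Control (-5.62). *P2rx2*, an ATP-gated channel, had no count in either RA library and 121 in the Control libraries. With the RA group set to a floor of 3 counts its rate was 39.9-fold lower with RA. The lower 95% Poisson limit from the 0 counts was 31.9-fold, for counting error alone.

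**Figure D3:**
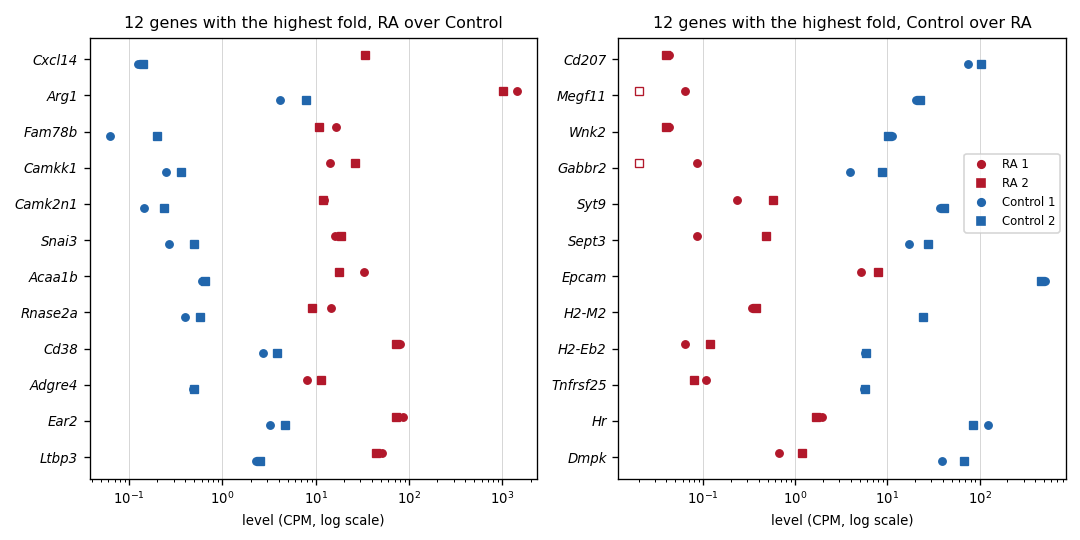
Level in CPM (log scale) of the 12 genes with the highest fold of RA over Control (left) and the 12 with the highest fold of Control over RA (right), with the RA libraries in red and the Control libraries in blue (circles library 1, squares library 2). Called genes entered the choice where their higher group averaged 5 CPM or more and the groups did not overlap, and open symbols drawn at 0.02 CPM mark 0 counts.

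On the scale of RPKM, which divides by exon length and so allows levels of different genes to be compared, 4 of the 8 genes called with the largest loss were of MHC class II (*Cd74*, *H2-Ab1*, *H2-Aa* and *H2-Eb1*), and the largest gain was that of *Lyz2*. *Lyz2*, the lysozyme of macrophages, averaged 21456 RPKM with RA, against 8301 RPKM in Control (1.37). *Ccl6*, a chemokine of myeloid cells, averaged 5402 RPKM with RA, against 895 RPKM in Control (2.59). *Ctsd*, the lysosomal protease cathepsin D, averaged 3777 RPKM with RA, against 1321 RPKM in Control (1.52). The other 5 genes with the largest gains were *Tmsb4x*, *Ftl1*, *Psap*, *Spp1* and *Fth1*, with log2 fold changes of 0.40 to 1.39. These gains depended on the controls. Against 4 untreated wild-type libraries only *Lyz2* of these 8 was still called (1.03), with *Ccl6* at 1.56, *Ctsd* at 0.95, *Psap* at 0.92, *Tmsb4x* at 0.61, *Ftl1* at 0.57, *Spp1* at 0.46 and *Fth1* at 0.02. *Fth1* also lost its call without Control 1 (0.34) or Control 2 (0.45). Among the losses, *Cd74*, the invariant chain of MHC class II, averaged 986 RPKM with RA, against 10464 RPKM in Control (-3.41). *Mfge8*, a bridge between apoptotic cells and phagocytes, averaged 59.2 RPKM with RA, against 2428 RPKM in Control (-5.36). *Cst3*, a cysteine protease inhibitor abundant in DCs, averaged 1235 RPKM with RA, against 5002 RPKM in Control (-2.02). *S100a4*, a calcium-binding protein, and *B2m*, the light chain of MHC class I, followed with -2.54 and -0.83, and all 5 stayed called against 4 untreated controls.

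Most LC markers fell. Of 14 genes of the list 11 were tested, and 7 were called lower and 2 higher (*Cd24a* at 0.49, chosen after its values were seen, and *Cd1d1* at 1.58), with a median log2 fold change of -1.90 against 0.012 over all genes. Their summed level was 1521 and 1810.0 CPM with RA, against 8309 and 9346 CPM in Control. *Epcam*, an adhesion molecule of LCs and epithelia, was at 5.17 and 7.88 CPM in RA 1 and RA 2, against 516 and 468 CPM in Control 1 and Control 2 (log2 fold change -6.23 ± 0.23 SE, edgeR adjusted p = 6.59e-05). *Hpgds*, the hematopoietic prostaglandin D synthase, was at 6.65 and 7.20 CPM with RA, against 160.3 and 255 CPM in Control (-4.91). *Cdh1*, which encodes E-cadherin, the molecule by which LCs hold on to keratinocytes, was at 370.2 and 513 CPM with RA, against 1670.2 and 1630.3 CPM in Control (-1.90). The loss was 3.74-fold for *Cdh1* and 75.3-fold for *Epcam*. Of 21 tested genes of cadherins, claudins and other junction proteins, 14 were called lower and 2 higher, and of 8 cadherin and protocadherin symbols 7 were lower and none higher. *Cldn1*, a claudin of tight junctions, was at 27.6 and 49.8 CPM with RA, against 442 and 447 CPM in Control (-3.52). *Cdh17*, a cadherin of the gut and B cells, was at 1.80 and 3.45 CPM with RA, against 21.9 and 42.7 CPM in Control (-3.61).

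Transcription factors of LCs changed in both directions, 3 of 14 higher (21.4%, near the 18.7% over all genes) and 7 lower (50.0%, beside 21.2%). *Runx3*, which LCs need, was at 44.3 and 64.1 CPM with RA, against 141 and 150.2 CPM in Control (-1.42). *Ahr*, the aryl hydrocarbon receptor, was at 14.7 and 18.0 CPM with RA, against 67.2 and 78.2 CPM in Control (-2.15). *Zbtb46*, a factor of conventional DCs, was at 1.72 and 2.20 CPM with RA, against 15.6 and 11.3 CPM in Control (-2.77). *Id2*, an inhibitor of E proteins that LCs also need, was at 271 and 285 CPM with RA, against 423 and 389 CPM in Control (-0.55, adjusted p = 0.00618 from edgeR), a smaller loss. On the other side *Cebpb*, a factor of macrophages and granulocytes, was at 284 and 178 CPM with RA, against 75.7 and 77.4 CPM in Control (1.59). *Klf4*, a monocyte factor, rose by 1.12, and *Zeb2*, which monocytes and DCs express, was at 171 and 161 CPM with RA, against 98.0 and 134 CPM in Control (0.52), a call lost without Control 1 at 0.31. *Zeb1*, its relative, fell to 5.45 and 11.6 CPM with RA, against 25.8 and 29.1 CPM in Control (-1.68, and -2.35 without RA 2). *Sox4*, a factor of progenitors, rose by 1.88.

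MHC class II genes fell together. Of 17 tested, 14 were called lower and none higher, with a median log2 fold change of -2.78. The summed level of the list was 5539 and 6504 CPM with RA, against 43738 and 41147 CPM in Control. *H2-Ab1*, the β chain of I-A, was at 365 and 491 CPM in RA 1 and RA 2, against 8561 and 7562 CPM in Control 1 and Control 2 (log2 fold change -4.24 ± 0.19 SE, edgeR adjusted p = 0.000103). *H2-Aa* and *H2-Eb1*, further chains of the peptide-binding molecules, fell by 4.00 and 4.29, and *H2-DMb1*, a chain of the peptide exchanger, was at 96.7 and 103 CPM with RA, against 718 and 649.6 CPM in Control (-2.78). *H2-Ob*, a chain of the inhibitor of that exchanger, was at 2.83 and 3.19 CPM with RA, against 42.4 and 49.2 CPM in Control (-3.92). *H2-Eb2*, a little-expressed β chain, had 9 counts with RA against 572 in Control. *Ciita*, the coactivator that turns these genes on, was at 18.1 and 30.4 CPM with RA, against 423 and 443 CPM in Control (-4.16) and was chosen after its values were seen.

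Most MHC class I genes also fell. Of 20 tested, 12 were called lower and 3 higher, with a median log2 fold change of -0.53. *H2-T23*, which encodes Qa-1, was at 71.1 and 75.4 CPM with RA, against 235 and 245 CPM in Control (-1.71). *Tap1*, a subunit of the peptide transporter, was at 70.3 and 90.97 CPM with RA, against 215 and 236 CPM in Control (-1.48). *H2-M3*, which presents formylated peptides, was at 21.5 and 22.7 CPM with RA, against 59.7 and 62.6 CPM in Control (-1.47). *H2-M2*, a nonclassical class I gene, lost far more, at 0.343 and 0.377 CPM with RA, against 24.5 and 24.2 CPM in Control (-6.07). *Cd1d1*, which presents lipids to NKT cells, went the other way at 96.3 and 84.9 CPM with RA, against 30.1 and 30.4 CPM in Control (1.58). *Nlrc5*, the coactivator of class I genes, was at 36.3 and 42.5 CPM with RA, against 82.4 and 81.9 CPM in Control (-1.06, and -0.74, not called, against 4 untreated controls). *Psmb9*, a subunit of the immunoproteasome, was at 59.4 and 64.2 CPM with RA, against 114 and 103 CPM in Control (-0.81). *Psma6* of the constitutive proteasome was at 238 and 236 CPM with RA, against 172 and 158 CPM in Control (0.52, and 0.38, not called, against 4 untreated controls).

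Genes of mature and migrating DCs fell for 20 of 28 members tested, with 1 called higher and a median of -2.38. *Ccr7*, the receptor that guides DCs to lymph nodes, was at 6.20 and 7.10 CPM in RA 1 and RA 2, against 125 and 139 CPM in Control 1 and Control 2 (log2 fold change -4.31 ± 0.12 SE, edgeR adjusted p = 6.21e-05). *Cd83*, a surface marker of maturation, was at 3.95 and 3.69 CPM with RA, against 68.9 and 66.6 CPM in Control (-4.15). *Fscn1*, an actin bundler of DC dendrites, was at 5.77 and 6.45 CPM with RA, against 69.3 and 76.8 CPM in Control (-3.58). *Ccl22*, a chemokine for regulatory T cells, was at 32.3 and 38.4 CPM with RA, against 545 and 559.9 CPM in Control (-3.97). Each of these 4 was 10-fold or more lower in both RA libraries than in either Control library. *Nr4a3*, a nuclear receptor of DC migration, was at 4.46 and 4.78 CPM with RA, against 91.7 and 82.6 CPM in Control (-4.24). *Traf1*, an adaptor induced by NF-κB, was at 3.09 and 2.74 CPM with RA, against 45.8 and 40.3 CPM in Control (-3.89). Of 19 tested costimulatory and checkpoint ligands, 10 were called lower and 3 higher. *Cd86*, a ligand of CD28 on T cells, was at 13.4 and 19.7 CPM with RA, against 89.9 and 105 CPM in Control (-2.56). *Cd80*, its relative, was at 19.7 and 20.6 CPM with RA, against 68.3 and 72.3 CPM in Control (-1.80). *Cd40*, the receptor for T cell help, was at 2.64 and 5.10 CPM with RA, against 41.1 and 40.2 CPM in Control (-3.39). *Cd276*, which encodes B7-H3, was at 0.708 and 0.933 CPM with RA, against 20.5 and 18.4 CPM in Control (-4.56). *Pdcd1lg2*, which encodes PD-L2, was at 15.7 and 18.1 CPM with RA, against 61.7 and 61.9 CPM in Control (-1.87). *Havcr2*, which encodes TIM-3, was at 13.9 and 17.6 CPM with RA, against 111 and 137 CPM in Control (-2.98).

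Interferon-stimulated genes (ISGs) were lower almost throughout. Of 46 tested, 42 were called lower, 35 of them at least 2-fold, and none higher, with a median log2 fold change of -1.44, beside a share of 21.2% called lower among all genes. All 6 *Ifit* genes and all 8 *Oas* genes tested were called lower. Many ISG promoters carry the interferon-stimulated response element, here searched for as GAAANNGAAA on both strands. It was found in 22 of 35 matched ISG promoters (62.9%), in 3.16% of the promoters of all tested genes and in 3.49% of the 27018 promoters in the RefSeq table. Of matched promoters of all genes called lower 4.89% held it, and of those called higher 2.84%. The ISGs *Gbp2* (-0.19) and *Gbp3* (-0.53), which were not called, also held it. A link of the element to the losses was not tested. Sites of 6 genes that fell are shown, since many members of the list hold this element, with the match in capitals (read as TTTCNNTTTC where it lies on the other strand).
Ifit1: aggcttcagTTTCACTTTCcagtctcag
Ifit3: agtggtaagTTTCACTTTCctcttctgg
Oas3: cagggaggaGAAAACGAAAgtgaaggga
Stat2: gcaccctggTTTCAGTTTCctttcccta
Gbp5: cttgtgtagTTTCAATTTCagtttagag
Slfn8: tttgagcagTTTCGTTTTCcccaaaagc
The windows are from RefSeq on GRCm38.p6, written 5′ to 3′ on the strand of the gene. They lie at chr19:34640776-34640803 (Ifit1, plus strand), chr19:34583364-34583391 (Ifit3, plus strand), chr5:120777716-120777743 (Oas3, minus strand), chr10:128270267-128270294 (Stat2, plus strand), chr3:142496760-142496787 (Gbp5, plus strand) and chr11:83020840-83020867 (Slfn8, minus strand). The match is a description of the letters and was not tested as a binding site.

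*Ifit1*, an antiviral protein that binds viral RNA, was at 1.74 and 4.13 CPM in RA 1 and RA 2, against 28.3 and 28.6 CPM in Control 1 and Control 2 (log2 fold change -3.27 ± 0.36 SE, edgeR adjusted p = 0.00143). *Ifit3*, its partner, was at 0.815 and 2.32 CPM with RA, against 18.6 and 19.5 CPM in Control (-3.59). *Oas3*, an enzyme that activates RNase L, was at 8.84 and 24.9 CPM with RA, against 127 and 164 CPM in Control (-3.11). In these 3 genes RA 1 was the lowest library and RA 2 stood between it and the Control libraries, and without RA 2 the values were -4.05, -4.56 and -4.06. The same order held in the summed level of the list, at 1305 and 1902 CPM with RA, against 3559 and 4091 CPM in Control. *Stat2*, a transducer of type I interferon, was at 72.0 and 82.5 CPM with RA, against 201 and 199 CPM in Control (-1.37). *Irf9*, its DNA-binding partner, was at 40.9 and 59.3 CPM with RA, against 98.2 and 104 CPM in Control (-1.01). *Irf7*, the factor that amplifies interferon, was at 8.67 and 18.99 CPM with RA, against 73.3 and 115 CPM in Control (-2.76, and -3.45 without RA 2). *Irf4*, a factor of DC subsets, was at 44.9 and 86.2 CPM with RA, against 129 and 115 CPM in Control (-0.90, adjusted p = 0.0485 from edgeR), and its call was lost without Control 1 (-0.81) or Control 2 (-0.97). *Usp18*, a brake on the interferon receptor, was at 2.94 and 9.94 CPM with RA, against 60.3 and 63.5 CPM in Control (-3.26, with -2.63 without RA 1 and -4.41 without RA 2). *Gbp5* fell by 2.12, and *Slfn8* by 1.95 (with -2.55 without RA 2 and -1.42, not called, against 4 untreated controls). *Gbp11* was called higher at a low level, 0.858 and 1.13 CPM with RA, against 0.146 and 0.279 CPM in Control (2.21), and lost the call without Control 1 (1.82) and against 4 untreated controls (1.28). The number of ISGs called lower was 42 without RA 1, 45 without RA 2, 37 without Control 1 and 32 without Control 2. Of 24 tested JAK, STAT and SOCS genes, 15 were lower (9 without Control 2) and 2 higher. *Stat4*, a transducer of IL-12 signals, was at 1.76 and 2.06 CPM with RA, against 16.2 and 18.2 CPM in Control (-3.16). *Socs5*, a suppressor of cytokine signalling, was at 17.3 and 18.4 CPM with RA, against 82.5 and 94.1 CPM in Control (-2.31), while *Socs2* rose by 0.74 (0.45, not called, against 4 untreated controls).

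**Figure D4:**
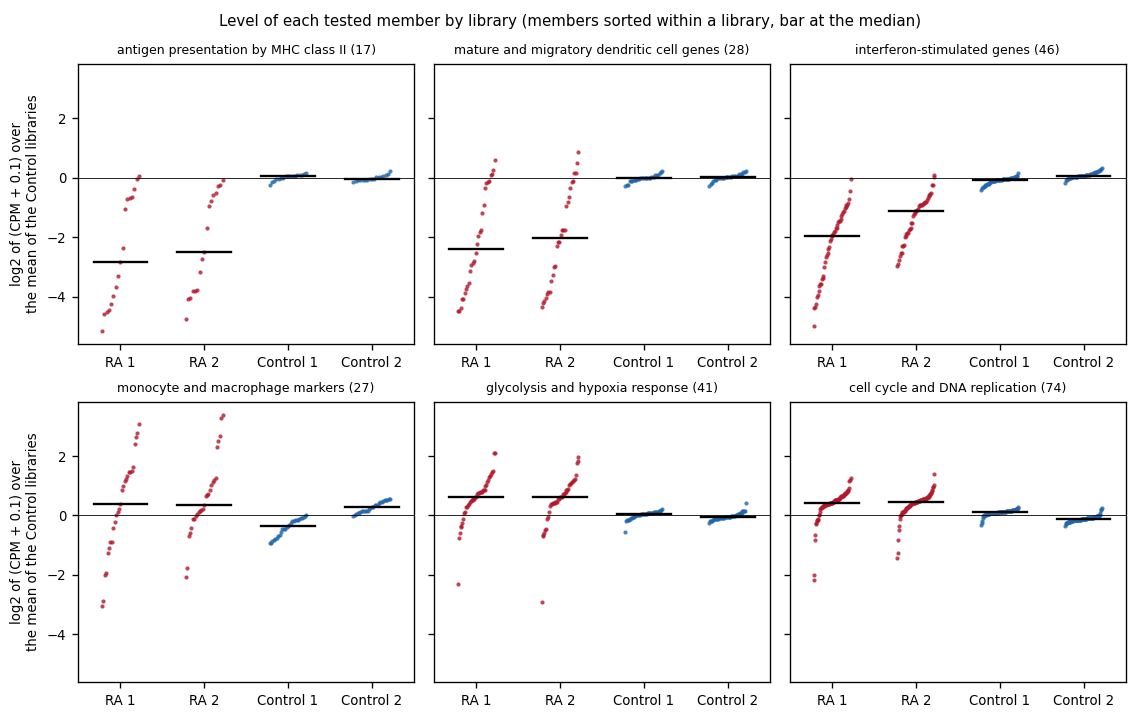
Each point is a tested member of a list in one library, as log2 of CPM + 0.1 over the mean of the Control libraries, sorted within a library, with a bar at the median (RA in red, Control in blue). The medians were -2.82 and -2.49 in RA 1 and RA 2, against 0.05 and -0.05 in Control 1 and Control 2, for MHC class II, and -1.95 and -1.12, against -0.07 and 0.06, for interferon-stimulated genes.

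The plot by library shows the MHC class II and mature DC lists shifted down alike in both RA libraries, the ISGs shifted further in RA 1, and the glycolysis and cell cycle lists shifted up by less than 1 unit. The monocyte and macrophage list spread both ways, and its Control libraries differed from each other, with medians of -0.35 in Control 1 and 0.28 in Control 2.

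Among monocyte and macrophage markers, 11 of 27 were called higher (40.7%, beside 18.7% over all genes), all of them at least 2-fold. Another 4 were called lower (14.8%, beside 21.2%), and 12 were not called. The median log2 fold change of the list was only 0.23 (0.14 without Control 1 and 0.66 without Control 2). Those described first are among the genes that rose. *Cx3cr1*, a chemokine receptor of monocytes and tissue macrophages, was at 39.3 and 45.4 CPM in RA 1 and RA 2, against 4.27 and 4.87 CPM in Control 1 and Control 2 (log2 fold change 3.21 ± 0.14 SE, edgeR adjusted p = 0.000103). *Ccr2*, the receptor by which monocytes leave the marrow, was at 530.3 and 626 CPM with RA, against 95.4 and 102 CPM in Control (2.55). *C5ar1*, the receptor for complement C5a, was at 116 and 105 CPM with RA, against 14.7 and 22.2 CPM in Control (2.58, and 1.51, not called, against 4 untreated controls). *Cd14*, the coreceptor for endotoxin, was at 173 and 183 CPM with RA, against 69.2 and 84.9 CPM in Control (1.21). None of these genes overlapped between groups, and 38.6% of all genes tested had both RA libraries above both Control libraries. *Fcgr4* and *Fcgr1*, activating receptors for IgG, rose by 3.18 and 2.01, of which *Fcgr4* was not called against 4 untreated controls (1.17). *Fcgrt*, the neonatal Fc receptor that carries IgG through cells, fell by 0.98. *Sirpa*, an inhibitory receptor of myeloid cells, was at 1457 and 1343 CPM with RA, against 1071 and 1094 CPM in Control (0.37), a call that was lost without RA 1 (0.31), Control 1 (0.36) or Control 2 (0.39), and against 4 untreated controls (0.36). *Itgam*, which encodes CD11b, was at 391 and 384 CPM with RA, against 246 and 424 CPM in Control (0.21, adjusted p = 0.514 from edgeR, not called). Control 2 lay above both RA libraries and Control 1 below them. Without Control 2 *Itgam* was called at 0.66, and without Control 1 it was at -0.13. *Axl*, a receptor for apoptotic cells, was at 1429.8 and 1607 CPM with RA, against 611 and 632 CPM in Control (1.29). Of 17 tested complement genes, 5 were called higher, among them *C5ar2* (1.70) and *C1ra* (1.46), and 1 lower, *Itgax* (4 lower without RA 2).

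Innate sensors and cytokines changed in both directions. Of 28 tested Toll-like receptor genes and adaptors, 11 were called higher and 9 lower. The counts were 6 and 4 without Control 1, 8 and 4 without Control 2, and 4 and 5 with 4 untreated controls. *Unc93b1*, which brings Toll-like receptors to endosomes, was at 376 and 424 CPM with RA, against 138 and 166 CPM in Control (1.39). *Tlr13*, a sensor of bacterial ribosomal RNA, was at 91.6 and 93.2 CPM with RA, against 28.4 and 46.0 CPM in Control (1.31). *Tlr5*, the flagellin receptor, was at 1.07 and 1.43 CPM with RA, against 6.19 and 5.77 CPM in Control (-2.25). None of the 3 was called against 4 untreated controls (0.92, 0.90 and -1.74). Of 24 tested interleukins and other cytokines, 9 were called higher and 9 lower. *Il6*, a cytokine of inflammation, was at 11.6 and 13.5 CPM in RA 1 and RA 2, against 0.729 and 0.918 CPM in Control 1 and Control 2 (log2 fold change 3.92 ± 0.22 SE, edgeR adjusted p = 0.000158). *Il1a*, which encodes IL-1α, was at 194 and 276 CPM with RA, against 30.9 and 32.3 CPM in Control (2.89). *Lta*, which encodes lymphotoxin, was at 2.27 and 4.64 CPM with RA, against 53.6 and 59.9 CPM in Control (-4.03, and -4.65 without RA 2). *Pycard*, the inflammasome adaptor, rose by 1.18, *Ikbke*, a kinase of interferon and NF-κB signalling, rose by 2.86, and *Il18r1* fell by 3.25. Among chemokine ligands 4 of 19 were called higher (21.1%) and 7 lower (36.8%), beside 18.7% and 21.2% over all genes. *Cxcl14* and *Ccl5* were at the extremes. The median of the list was -0.48 (-0.14 without RA 1 and -0.93 without RA 2). *Ccl5*, a chemokine for T cells, was at 0.901 and 1.27 CPM with RA, against 19.2 and 25.9 CPM in Control (-4.37). *Cxcr4*, the receptor that holds cells in the marrow, was at 14.2 and 12.3 CPM with RA, against 36.3 and 49.8 CPM in Control (-1.70).

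Receptors for growth factors fell, 12 of 20 tested against 2 higher. *Kit*, the receptor of stem cell factor, was at 11.4 and 15.0 CPM with RA, against 77.7 and 76.8 CPM in Control (-2.54). *Csf3r*, the receptor for G-CSF, was at 22.9 and 28.2 CPM with RA, against 174 and 187 CPM in Control (-2.82). *Egfr*, the receptor of epidermal growth factor, was at 0.472 and 0.635 CPM with RA, against 14.8 and 15.1 CPM in Control (-4.75). *Il7r*, a chain of the IL-7 receptor, was at 29.9 and 28.4 CPM with RA, against 166 and 212 CPM in Control (-2.70). Without Control 2 the list had 8 called lower. In the TGFβ pathway, which drives LC differentiation in this culture, 8 of 34 genes were higher (23.5%) and 11 lower (32.4%). Over all genes tested the shares were 18.7% and 21.2%. The number higher was 4 without Control 1 and 5 without Control 2 or RA 2, and the number lower was 7 without Control 2. *Inhba*, a subunit of activin, was at 7.85 and 9.80 CPM with RA, against 38.6 and 49.4 CPM in Control (-2.32, and -1.47, not called, against 4 untreated controls). *Itgav*, part of the integrins that release active TGFβ, was at 41.0 and 45.3 CPM with RA, against 75.5 and 74.4 CPM in Control (-0.80). Of 19 tested integrin genes, 10 were lower and 3 higher, with *Itga3* at 0.215 and 0.258 CPM with RA, against 5.23 and 4.49 CPM in Control (-4.34). *Itgb5* was at 227 and 245 CPM with RA, against 119.9 and 119 CPM in Control (0.98). Of 27 tested C-type lectin receptors, 14 were lower and 4 higher, among them *Cd209a*, the mouse relative of human DC-SIGN, at 1.69 and 1.90 CPM with RA, against 21.8 and 19.04 CPM in Control (-3.50), *Clec4a1* (-3.76) and *Klrb1b* (-2.03). The number of lectins called lower was 10 without Control 1 and 8 without Control 2, and the number higher was 8 without RA 2 and 2 without Control 1. Of 20 tested metalloproteinases and inhibitors, 9 were lower and 2 higher, with *Mmp25* at -4.21, *Mmp9*, the gelatinase, at -2.89, *Adam23* at -3.25 (-2.52, not called, against 4 untreated controls) and the inhibitor *Timp2* at -2.26.

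Most genes of glycolysis rose. Of 41 tested genes of glycolysis and the response to hypoxia, 28 were called higher (11 at least 2-fold) and 4 lower (2 without Control 2), with a median log2 fold change of 0.64, where 18.7% of all genes were called higher. *Pfkl*, the liver form of phosphofructokinase, was at 273 and 251 CPM in RA 1 and RA 2, against 67.5 and 60.2 CPM in Control 1 and Control 2 (log2 fold change 2.04 ± 0.10 SE, edgeR adjusted p = 0.000121). *Pgam1*, a mutase of glycolysis, was at 324 and 307 CPM with RA, against 132 and 135 CPM in Control (1.24). *Pdk1*, which keeps pyruvate out of mitochondria, was at 126 and 107 CPM with RA, against 50.6 and 45.5 CPM in Control (1.27). *Ndrg1*, a gene induced by hypoxia, went the other way at 19.6 and 12.8 CPM with RA, against 112 and 81.4 CPM in Control (-2.58). The summed level of the list was 14346 and 14141 CPM with RA, against 9158 and 8581 CPM in Control, and 21 members stayed higher with 4 untreated controls. Of 24 tested genes of the pentose phosphate pathway and NADPH supply, 11 were higher and 1 lower (3 without RA 2), with *Idh1*, which makes NADPH in the cytosol, at 387 and 292 CPM with RA, against 105 and 104 CPM in Control (1.70). *Gsr*, which uses it to reduce glutathione, was at 519 and 449.6 CPM with RA, against 169 and 181 CPM in Control (1.47). *Rpia* and *Pgd*, enzymes of the pathway itself, rose by 1.14 and 0.87.

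Lipid genes rose for 14 of 35 members and fell for 4 (2 without Control 2). *Pparg*, the nuclear receptor of lipid storage that alveolar macrophages also need, was at 184 and 138 CPM in RA 1 and RA 2, against 25.5 and 30.1 CPM in Control 1 and Control 2 (log2 fold change 2.54 ± 0.17 SE, edgeR adjusted p = 0.000273). *Mgll*, which cleaves monoglycerides, was at 114 and 109 CPM with RA, against 24.6 and 26.3 CPM in Control (2.13). *Angptl4*, a PPAR target, was at 78.1 and 74.7 CPM with RA, against 28.97 and 29.9 CPM in Control (1.38). *Lipe*, the hormone-sensitive lipase, was at 24.7 and 30.7 CPM with RA, against 129 and 141 CPM in Control (-2.28). *Abcd2*, which brings fatty acids into peroxisomes, was at 314 and 237 CPM with RA, against 28.3 and 33.7 CPM in Control (3.15), and the acetyl-CoA producer *Acly* rose by 0.65. Of 24 tested genes of cholesterol synthesis, 6 were higher and 1 lower. The number higher was 12 without RA 2, 2 without Control 2 and 0 with 4 untreated controls. Of 17 tested genes of arginine and polyamine metabolism, 7 were higher (4 without either Control library) and 2 lower (0 without either). Besides *Arg1*, *Nos2*, which makes nitric oxide from arginine, was at 6.95 and 4.25 CPM with RA, against 1.25 and 1.04 CPM in Control (2.29), and *Sms*, the spermine synthase, rose by 0.65. *Slc7a2*, an arginine transporter, rose by 0.49 and lost its call without Control 1 (0.42) and against 4 untreated controls (0.78). In NAD metabolism 7 of 20 genes were higher (3 without Control 1, 4 without Control 2) and 3 lower (1 without either), and *Kmo* of the kynurenine pathway was at 13.7 and 31.4 CPM with RA, against 108 and 116 CPM in Control (-2.31, and -3.04 without RA 2). *Phgdh*, the first enzyme of serine synthesis, rose by 1.78, and the glutathione transferases *Gstm1* and *Mgst1* by 2.28 and 1.93 (*Mgst1* at 1.15, not called, against 4 untreated controls).

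Of the genes of proliferation, translation and respiration, many were called higher by small amounts and few lower. Fewer were called without a Control library, where the lone Control library is assumed to vary like the RA libraries. The median of the cytosolic ribosomal proteins, 0.32, was 0.39 without Control 1 and 0.26 without Control 2. That of complex I, 0.31, was 0.40 and 0.23. With 4 untreated controls these medians were 0.04 and 0.16. Of 74 tested cell cycle and DNA replication genes, 49 were called higher, 3 of them at least 2-fold, and 4 lower, with a median of 0.45. *Cdk4*, which drives cells out of G1, was at 268 and 274 CPM with RA, against 156 and 128 CPM in Control (0.93). *Bub1b*, of the spindle checkpoint, was at 241 and 261 CPM with RA, against 142 and 127 CPM in Control (0.90). *Myc*, a transcription factor of growing cells, was at 143 and 158 CPM with RA, against 84.3 and 72.7 CPM in Control (0.94). The D-type cyclins, partners of CDK4 and CDK6, moved in both directions. *Ccnd1* was at 89.6 and 149 CPM with RA, against 351 and 359.9 CPM in Control (-1.58). *Ccnd3* was at 154 and 155 CPM with RA, against 288 and 259 CPM in Control (-0.82). *Ccnd2*, added after its values were seen, was higher at 96.9 and 153 CPM with RA, against 46.6 and 70.0 CPM in Control (1.10). Without Control 2, 12 cell cycle genes were called higher and 3 lower, and with 4 untreated controls 34 and 3. Of 87 tested cytosolic ribosomal protein genes, 44 were higher and none lower, with a median of 0.32, and the number higher was 11 without Control 1, 1 without Control 2, 3 with 4 untreated controls and 9 once the trend on exon length was removed. Of 77 mitochondrial ribosomal protein genes, 43 were higher and 1 lower (9 higher without Control 2, 26 without Control 1, 13 with 4 untreated controls and 28 with the length trend removed). Of 43 *Nduf* genes of respiratory complex I 20 were higher and 1 lower. The number higher was 3 without Control 2, 9 without Control 1, 4 with 4 untreated controls and, with 4 lower, 10 with the length trend removed. Of 15 ATP synthase genes 13 were higher and none lower (3 without Control 2, 6 with 4 untreated controls and 7 with the length trend removed). *Mrpl42* was at 63.7 and 64.1 CPM with RA, against 42.0 and 38.9 CPM in Control (0.66, and 0.32, not called, against 4 untreated controls). *Ndufs4* was at 95.2 and 82.6 CPM with RA, against 52.7 and 49.6 CPM in Control (0.80). *Atp5g3* was at 389 and 371 CPM with RA, against 239 and 207 CPM in Control (0.77). These genes are short, and in the fifth of genes with the shortest exons 27.6% were called higher. The part of exon length in these counts was not tested beyond the fit with that trend removed.

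Of 59 tested genes of lysosomes, cathepsins and the V-ATPase, 19 were called higher and 8 lower. *Ctsc*, cathepsin C, was at 2195 and 2193 CPM with RA, against 1216 and 1242 CPM in Control (0.84). *Gaa*, which breaks down glycogen, was at 95.5 and 93.7 CPM with RA, against 38.2 and 44.6 CPM in Control (1.19). *Atp6v1b2*, a subunit of the proton pump, was at 578 and 532 CPM with RA, against 387 and 381 CPM in Control (0.53, and 0.36, not called, against 4 untreated controls). The number higher was 11 without Control 1, 12 without Control 2, 15 without RA 1, 26 without RA 2 and 6 with 4 untreated controls, and the number lower was 3 without Control 2. *Lamtor1*, a lysosomal anchor of mTORC1 signalling, was at 125 and 127 CPM with RA, against 99.0 and 93.1 CPM in Control (0.39, adjusted p = 0.0143 from edgeR), and its call was lost without Control 1 (0.44), without Control 2 (0.35) and with 4 untreated controls (0.06).

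In each list named below of other cells that a CD11c+ fraction of BM culture could hold, more tested members were called lower than higher with RA. The monocyte and macrophage list, described above, went the other way, with 11 of 27 called higher and 4 lower. Of 23 tested neutrophil and granule genes, 16 were called lower and 1 higher, and their summed level was 379 and 625 CPM with RA, against 1238 and 1681 CPM in Control. *S100a8* and *S100a9*, which form calprotectin, were both lower. *S100a8* was at 67.8 and 83.2 CPM with RA, against 348 and 483 CPM in Control (-2.46), and *S100a9* was at 82.2 and 99.7 CPM with RA, against 417 and 568 CPM in Control (-2.44). Against 4 untreated libraries 6 of these genes were called lower and none higher. Of 11 tested genes of plasmacytoid DCs 9 were lower and 1 higher (5 lower without Control 2), with *Siglech* at 4.14 and 6.61 CPM with RA, against 22.5 and 62.7 CPM in Control (-2.98, with -2.07 without Control 2 and -2.24, not called, against 4 untreated controls). Control 2 was the higher of the Control libraries in this list as in that of stromal, endothelial and epithelial genes, where 7 of 9 were lower (3 without Control 2) at a summed 18.3 and 17.9 CPM with RA, against 37.6 and 82.5 CPM in Control. In the T, NK and B cell list 6 of 24 genes passed the filter, with 1 called higher and 4 lower, and the list summed to 8.43 and 11.5 CPM, against 25.2 and 45.8 CPM. Of 12 tested genes of eosinophils, mast cells and basophils 4 were higher and 6 lower, each at least 2-fold. The counts were 1 and 6 with 4 untreated controls. The median of the list was -1.32 (-0.26 without Control 2). *Siglecf*, a marker of eosinophils, rose by 1.53, and *Ear1*, a relative of *Ear2*, by 3.30. *Ccr3*, another eosinophil marker, had 7 counts with RA against 23 in Control. *Hdc*, the histidine decarboxylase of mast cells and basophils, was at 0.172 and 0.694 CPM with RA, against 7.02 and 10.2 CPM in Control (-4.29, with -3.63 without RA 1 and -5.64 without RA 2). Of 12 progenitor genes 3 were higher and 6 lower (3 without Control 2), with *Prom1*, which encodes the stem cell marker CD133, at 87.8 and 48.7 CPM with RA, against 13.0 and 18.3 CPM in Control (2.12). The part of these cells in the losses of ISGs, granule genes and growth factor receptors was not tested.

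**Figure D5:**
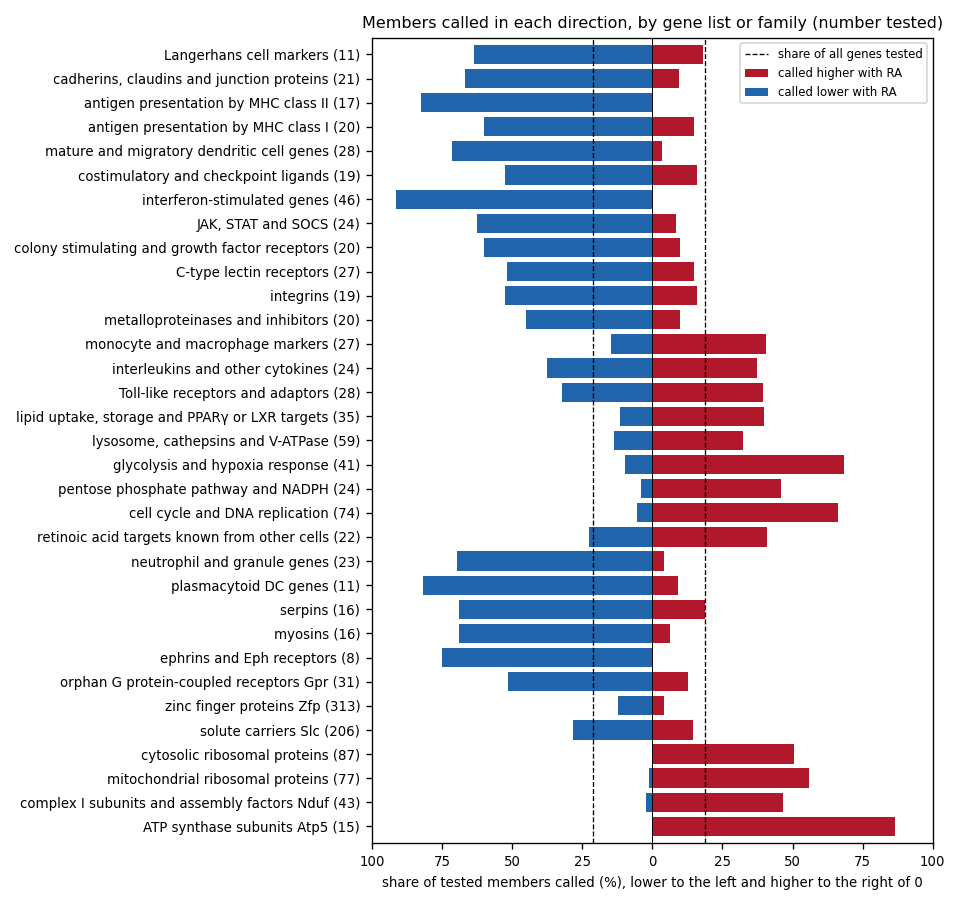
Share of the tested members called lower (blue, left of 0) and higher (red, right of 0) with RA for 33 gene lists and symbol families, with the number tested in brackets. Dashed lines mark the shares among all genes tested, 21.2% lower and 18.7% higher, and among the 33 chosen for the plot the bars run furthest left for the ISGs (91.3%) and MHC class II (82.4%) and furthest right for the ATP synthase genes (86.7%).

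Families of genes that share a symbol gave further groups, read against 18.7% higher and 21.2% lower over all genes. Of 16 serpins tested 11 were lower and 3 higher, among them *Serpinf2* at -4.72 (-5.43 without RA 1) and *Serpinb6b* at -3.33. Of 16 myosins 11 were lower and 1 higher, with *Myo18a* at 44.1 and 46.2 CPM with RA, against 127 and 125 CPM in Control (-1.48). *Myo7a*, the one that rose, was at 169.6 and 154 CPM with RA, against 71.7 and 66.1 CPM in Control (1.23). Of 8 ephrins and Eph receptors 6 were lower and none higher, all 3 of the members with the smallest p at under 2 CPM. Among 16 semaphorins and plexins 9 were lower and 5 higher (2 without Control 1, 1 without Control 2), with *Plxna1*, a semaphorin receptor that DCs use to move, at 191 and 220.0 CPM with RA, against 625 and 663 CPM in Control (-1.65). *Sema7a*, a membrane-anchored semaphorin, was at 1.52 and 2.54 CPM with RA, against 20.8 and 26.9 CPM in Control (-3.54). Of 31 *Gpr* receptors 16 were lower and 4 higher, with *Gpr141* at 25.2 and 43.0 CPM with RA, against 382 and 454 CPM in Control (-3.62). *Rgs12*, which speeds up the shutdown of G proteins, was at 17.0 and 30.8 CPM with RA, against 255 and 271 CPM in Control (-3.46). Its relative *Rgs18* was at 4.31 and 8.93 CPM with RA, against 76.8 and 84.4 CPM in Control (-3.60, and -4.24 without RA 2). The solute carriers, 206 tested, had 30 higher and 58 lower, or 14.6% and 28.2% (17 and 38 without Control 1, 19 and 35 without Control 2). The 313 *Zfp* zinc finger genes had 13 higher and 38 lower, 4.15% and 12.1%, both under the shares of all genes (4 and 15 without Control 1, 5 and 11 without Control 2). *Rab20*, a GTPase of phagosomes, rose to 48.9 and 47.7 CPM with RA, against 7.12 and 7.96 CPM in Control (2.68). *Notch1* rose by 1.47 (0.83, not called, against 4 untreated controls) and *Fzd7*, a Wnt receptor, by 1.85, while *Wnt1* had 3 counts with RA against 144 in Control, a 47.5-fold lower rate (95% Poisson limits 15.9 and 233, for counting error alone).

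Of 29 tested AP-1 and immediate early genes 7 were higher and 3 lower. These counts were 3 and 5 without Control 1, 4 and 3 without Control 2 and 9 and 10 without RA 2, so their balance depended on single libraries. *Egr1*, a growth factor response gene, was at 130.3 and 376 CPM with RA, against 132 and 459 CPM in Control (-0.22, adjusted p = 0.808 from edgeR, not called). *Tnf*, an inflammatory cytokine, was at 76.1 and 215 CPM with RA, against 207 and 343 CPM in Control (-0.92, adjusted p = 0.172 from edgeR, not called). Both genes were higher in RA 2 than in RA 1 and higher in Control 2 than in Control 1, and both were chosen after their values were seen.

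The untreated libraries of the series differed from each other. In a fit of all 8 libraries, the 2 Control libraries and WT 1 and WT 2 differed in 2686 of 12424 genes (1451 higher and 1235 lower in Control), at the same threshold. The fit with 4 untreated controls holds these differences within its control group. A call lost in that fit is therefore not by itself a sign of a smaller effect of RA. Of 444 named genes with a test 357 kept their direction and their side of the threshold with 4 untreated controls, 83 lost their call and 4 changed sign. Those 4 were the Y-linked *Ddx3y* (-0.17 against Control, 0.58 against 4 untreated controls), *Kdm5d* (0.40) and *Uty* (0.37), none of them called, and *Egfl7*, a secreted protein of endothelium, at 1.57 against Control and -0.15, not called, against 4 untreated controls. Among the leading genes, *Arg1* (6.63), *Cxcl14* (5.80), *Cd207* (-10.30), *Ccr7* (-3.93) and *H2-Ab1* (-4.39) kept both. Among genes that stayed called, the fold before taking log2 moved by over 1.5 times for some, given here with log2 values against 4 untreated controls. They were *Cyp26b1* (-4.91), *Fabp4* (-1.93), *Snai3* (4.84), *Fam78b* (5.56), *Cdh17* (-3.01), *H2-Ob* (-4.95), *H2-M2* (-5.37), *Ccr2* (1.75), *Fcgr1* (1.35), *Mmp25* (-3.62), *Abcd2* (2.52), *Gstm1* (1.57) and *Serpinb6b* (-2.70), beside those given with their genes above.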

How the data were processed

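Messenger RNA of CD11c+ cells from 2 RA and 2 Control libraries was sequenced in pairs. Per the labels and methods, the authors aligned reads to mm10 with STAR and, with featureCounts, counted uniquely mapped pairs on the reverse strand per refGene gene, and the count table was deposited unscaled. The sources used here give no version of either tool. The authors also deposited RPKM, made from those counts, exon length and 1 scaling factor per library, and columns of fold changes, p-values and FDR of their own comparisons. None of these was used (2 RPKM columns named Control were not mapped to a sample), and RPKM was computed again from the TMM-scaled counts and the deposited exon lengths.

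Counts were fitted with edgeR 4.0.16 in R 4.3.3 (TMM, glmQLFit, glmQLFTest, group alone) on 12142 genes, and calls were made at an adjusted p below 0.05 over all of them. Intervals of low counts are exact 95% Poisson limits. Alternatives used DESeq2 1.42.0, limma 3.58.1, other scalings, filters and thresholds, the 4 untreated libraries as controls, 8 libraries for the spread, exon length, small RNAs, a replicate block and leaving out each library. Figures were drawn with matplotlib 3.10.9.

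The members of the comparison, the gene lists and the symbol families were chosen with earlier results of these data known, and no list was tested as a set. Named genes were the 12 per direction with the largest fold at 5 CPM or more and no overlap, the 8 per direction with the largest change in RPKM, all tested retinoid genes, up to 4 per list and 3 per symbol family with the smallest p, and genes the study's text names. Examples among them were picked after their values were seen. Some genes are not reported here.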

Additional observations from a re-analysis of the deposited data

How the results depend on the processing

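The counts of calls depended most on the threshold and on the controls. There were 923 genes higher and 1502 lower with RA at an adjusted p below 0.01 (edgeR), and 543 and 1181 by glmTreat against a 1.5-fold change. With 4 untreated libraries as controls there were 1165 and 1845, of which 1147 and 1784 were the same genes as with the Control libraries, and 4 named genes changed sign (*Ddx3y* 0.58, *Kdm5d* 0.40, *Uty* 0.37 and *Egfl7* -0.15). Leaving out 1 library gave 915 to 2460 higher and 1509 to 2833 lower genes, with the lone library of a group assumed to vary like the other group. In those fits *Ermap* ranged over -1.38 to 0.16, *Fabp5* over -0.03 to 0.75, *Gimap6* over -1.66 to 0.51 and *Itgam* over -0.13 to 0.66. The cause of these differences was not tested.

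DESeq2 (2346 and 2606), limma voom (2281 and 2603), RLE factors (2211 and 2604), upper-quartile factors (2283 and 2532), no filter (2379 and 2679), a filter of 5 CPM (1907 and 2128), a spread shared over 8 libraries (1890 and 2396), the exon length trend removed (2176 and 2498) and small RNAs left out (2272 and 2568) stayed within 1.5 times of 2265 and 2571. Total counts gave 1908 and 2740, with the median of all genes at -0.029. No gene was called in opposite directions by any of these settings. Of 444 named genes, 441 kept direction and call with DESeq2 and 406 without Control 2. The genes that differed between untreated groups numbered 3206 in a fit of those libraries alone and 2672 with RLE factors.

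The numbers of the RA and Control columns do not pair the samples by any source used here. RA 1 minus RA 2 and Control 1 minus Control 2 correlated at 0.276 across genes, and a fit with the number as a replicate block called 2526 higher and 2810 lower genes.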
